A study of Mus musculus with 4 samples.

Results

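The genes described here encode the proteins of the cytoplasmic ribosome. Members were chosen by gene name: Rpl or Rps with a number and an optional a, x or l, or Rplp0, Rplp1, Rplp2 and Rpsa, with rows named -ps and the Rps6k kinases left out. This gave 80 of the 24637 genes in the table, 31 of the small subunit, 45 of the large subunit and 4 paralogues whose name ends in l (Rpl3l, Rpl10l, Rpl39l and Rps27l). RNA was sequenced from mouse embryonic stem cell (ESC) lines driven towards the cardiac lineage, with 5 days in embryoid bodies followed by 9 days on gelatin. There were 4 libraries, 2 from independent WT lines and 2 from independent lines labelled Taf4a-/-. All lines came from crosses of Taf4a+/- mice on C57Bl6J, in which the null allele lacks a pair of internal exons, and all had been grown on embryonic fibroblast feeders before differentiation. The comparison asks how the loss of Taf4, a core subunit of the general transcription factor TFIID, bears on gene expression in these cultures. The libraries held 21732746 to 27733034 gene reads, and values are the deposited read counts divided by one size factor per library, called normalized counts below.

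Some facts of the whole series touch every result. Taf4a was at 889 and 678 normalized counts in the WT libraries and at 1722 and 1799 in the libraries labelled Taf4a-/-, so the RNA of the targeted gene was not lower there. Counts over a whole gene do not separate the deleted exons from the others, so this value does not check the labels. Each group is a mixed culture, and fewer cells of a type and less RNA per cell cannot be told apart. All 7 cardiomyocyte markers were lower in the libraries labelled Taf4a-/-, where they summed to 1973 and 2329 normalized counts against 22489 and 24374 in WT, so cardiomyocyte markers were low in that group. All 6 pluripotency markers lay higher in both libraries labelled Taf4a-/- than in either WT library and 5 were called, with sums of 12735 and 14574 against 4562 and 1484. All 5 macrophage, all 5 visceral endoderm or liver and 5 of 6 fibroblast markers were called lower. C1qa and Alb were listed at 0 in both libraries labelled Taf4a-/-. Markers of these cell types therefore moved with the genotype label in the same libraries as every difference below, and their part in those differences was not tested.

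A ribosome is built from ribosomal RNA and one set of small and large subunit proteins, which cells need in matched amounts. Their mRNAs are abundant and carry a run of pyrimidines at the very 5′ end, the terminal oligopyrimidine (TOP) element, through which mTOR signalling and the RNA-binding protein Larp1 control their translation. Most of these genes have many intronless copies in mammalian genomes, processed pseudogenes, which makes their reads hard to place. A few have paralogues used in particular tissues: Rpl3l in heart and skeletal muscle, and Rpl10l and Rpl39l in the testis, where they stand in for X-linked genes.

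A pair of sequence sets helps to read the values. The first is the coding sequence of Rpl39 and Rpl39l, the shortest pair, shown because Rpl39l was called higher and Rpl39 was not, and because their bases decide whether reads can be told apart. Both have 156 bases including the stop codon, and the capitals mark the 23 that differ.
Rpl39: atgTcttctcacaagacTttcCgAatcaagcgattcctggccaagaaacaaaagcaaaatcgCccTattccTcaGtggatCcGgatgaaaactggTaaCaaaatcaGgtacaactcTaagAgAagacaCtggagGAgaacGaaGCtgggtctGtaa
Rpl39l: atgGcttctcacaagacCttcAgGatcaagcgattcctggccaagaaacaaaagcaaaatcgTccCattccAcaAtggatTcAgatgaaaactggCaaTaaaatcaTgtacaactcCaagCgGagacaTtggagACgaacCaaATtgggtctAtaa
The pair was 85.3% identical in coding sequence and differed at 3 of 51 residues. Rpl39 lies on NCBIM37 chrX:34622515-34625397 on the minus strand and Rpl39l on chr16:10170319-10175004 on the plus strand.

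The second set is the start of 5 members with a TOP-like tract exactly at the annotated start, from 45 bases before it to 15 bases from it on, from RefSeq on GRCm38.p6. A tract was C followed by at least 4 of C or T on the sense strand, and capitals mark it. The 5 were chosen from both ends of the change between the groups.
Rps21, chr2:180257334-180257393, plus strand: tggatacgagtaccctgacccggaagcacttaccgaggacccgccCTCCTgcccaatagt
Rpl14, chr9:120571472-120571531, plus strand: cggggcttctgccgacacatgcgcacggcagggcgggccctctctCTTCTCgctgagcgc
Rps15a, chr7:118116133-118116192, minus strand: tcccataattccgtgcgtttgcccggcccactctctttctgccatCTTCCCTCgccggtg
Rpl28, chr7:4792920-4792979, plus strand: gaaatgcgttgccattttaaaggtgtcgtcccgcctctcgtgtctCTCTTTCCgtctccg
Rps6, chr4:86857353-86857412, minus strand: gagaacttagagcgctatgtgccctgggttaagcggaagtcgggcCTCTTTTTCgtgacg
Of the 60 members with a RefSeq window, 12 or 20.0% had such a tract starting at the first listed start, against 2.49% of all 27025 genes with a window. Within 10 bases on either side it was found in 35 members, 58.3%, against 30.8% of all genes. TATAA between 40 and 20 bases upstream was found in Rps9, Rps18, Rps26 and Rps27, which is 6.67% of the members against 3.83% of all genes. Among the 12 members with a tract at the start, 3 were called lower and 1 higher, and the median of their log2 fold changes was −0.19. Among the 34 tested members with a tract within 10 bases, these 12 included, 6 were called lower and 5 higher, with a median of −0.14. Their higher calls include Rpl10l and Rpl39l. Among the 25 with no tract within 10 bases, 8 were called lower and 2 higher, with a median of −0.28. The starts are annotated and were not measured here, so a member without a tract may still carry a TOP element. Of all genes tested, 17.3% were called lower and 11.3% higher (limma). The tract was thus present at the start of Rps21, Rpl14 and Rps15a, which fell, and of Rps6, which rose.

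More ribosomal protein genes were called lower than higher in the libraries labelled Taf4a-/-, and most did not pass the test. Of 79 members tested, 23 were called lower, 7 were called higher and 49 were not called (limma, Benjamini-Hochberg adjusted p under 0.05 over all 16926 genes tested). The background was 17.3% called lower and 11.3% called higher among all genes tested. In the small subunit 11 of 31 fell, 1 rose and 19 did not pass the test, and the median of the log2 fold changes was −0.31. In the large subunit 12 of 45 fell, 4 rose and 29 did not pass, with a median of −0.20. Both of the other genes called higher were paralogues ending in l. They passed the minimum mean of 10 only through the libraries labelled Taf4a-/-, so as tested genes they had to differ. Among the 76 small and large subunit genes 5, or 6.58%, were called higher. The median over the 79 members was −0.25, beside −0.01 over all genes tested. The values of the groups did not overlap for 61 members. Of these, 43 were lower in both libraries labelled Taf4a-/- (background 36.6%) and 18 were higher (background 34.5%). The numbers of calls depended on single libraries and on the variance model. The 23 members called lower became 4 without Taf4a-/- replicate 1, 4 without Taf4a-/- replicate 2, 12 without WT replicate 2, and 4 with no trend in limma's variance prior. The 4 calls, 5.06% of the members, lay below the background under the same settings, which was 11.7% without Taf4a-/- replicate 1, 11.3% without Taf4a-/- replicate 2 and 10.3% with no trend, so the excess of lower calls was absent there. Without WT replicate 2 the share was 15.2% beside 7.22% of all genes. The 7 called higher became 2, 4 and 2 without those 3 libraries in the same order, beside 3.69%, 3.69% and 4.40% of all genes. Leaving out WT replicate 1 moved neither count by over 1.5 times.

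**Figure D1:**
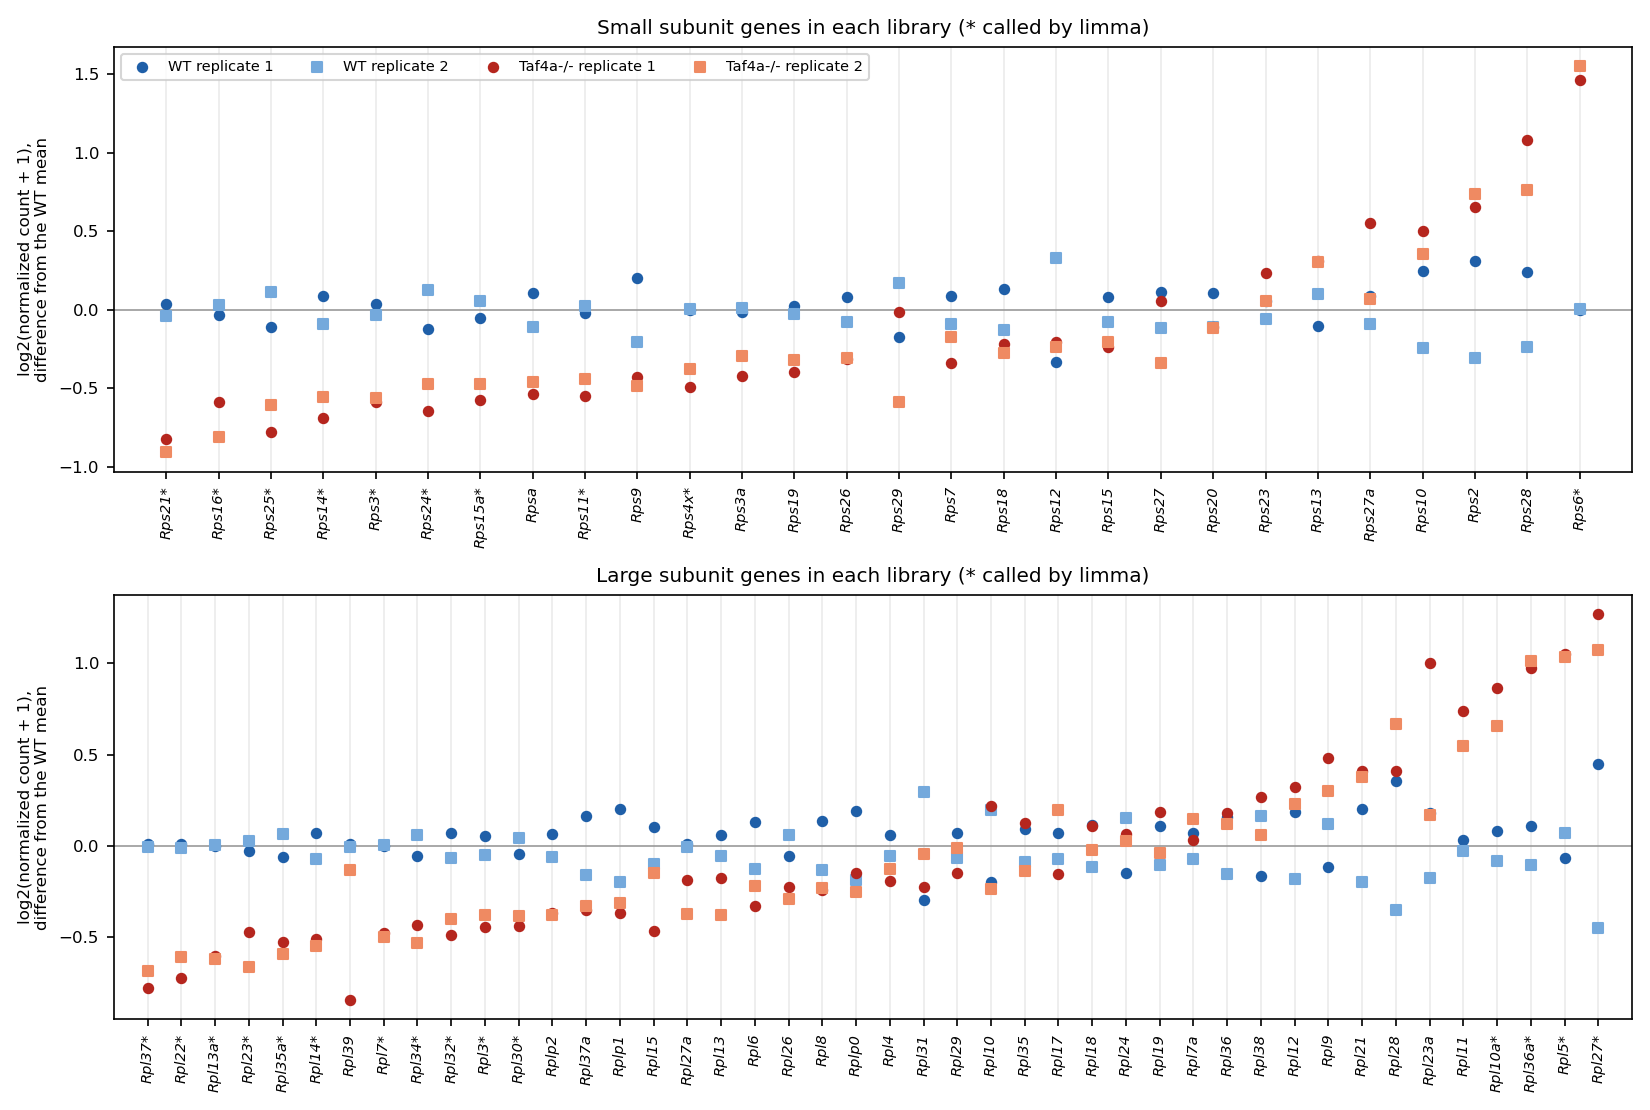
Small subunit genes (top) and large subunit genes (bottom) in each of the 4 libraries, as log2(normalized count + 1) minus the mean of the 2 WT libraries, ordered by log2 fold change; points are libraries and an asterisk marks a gene called by limma. It shows 72 of the 76 genes. Rpl27 and Rps6 stand highest in their panels, and the libraries labelled Taf4a-/- lie below both WT libraries for 40 of the genes shown and above both for 15.

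The same difference can be read from the share of all gene reads that fell on the 80 members. It was 1.19% and 1.03% in the WT libraries and 0.893% and 0.895% in the libraries labelled Taf4a-/-. The WT libraries were both higher and also further apart from each other, with a mean of 1.11% ± 0.108 (SD, n = 2) against 0.894% ± 0.00137 (SD, n = 2). Small subunit genes took 0.508% ± 0.0471 and 0.379% ± 0.00212, a ratio of 0.748, and large subunit genes 0.594% ± 0.0628 and 0.506% ± 0.000377, a ratio of 0.851. The groups did not overlap for either subunit. An exact permutation test of each share, two-sided, gave p = 0.333, the smallest that 2 libraries against 2 allow.

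**Figure D2:**
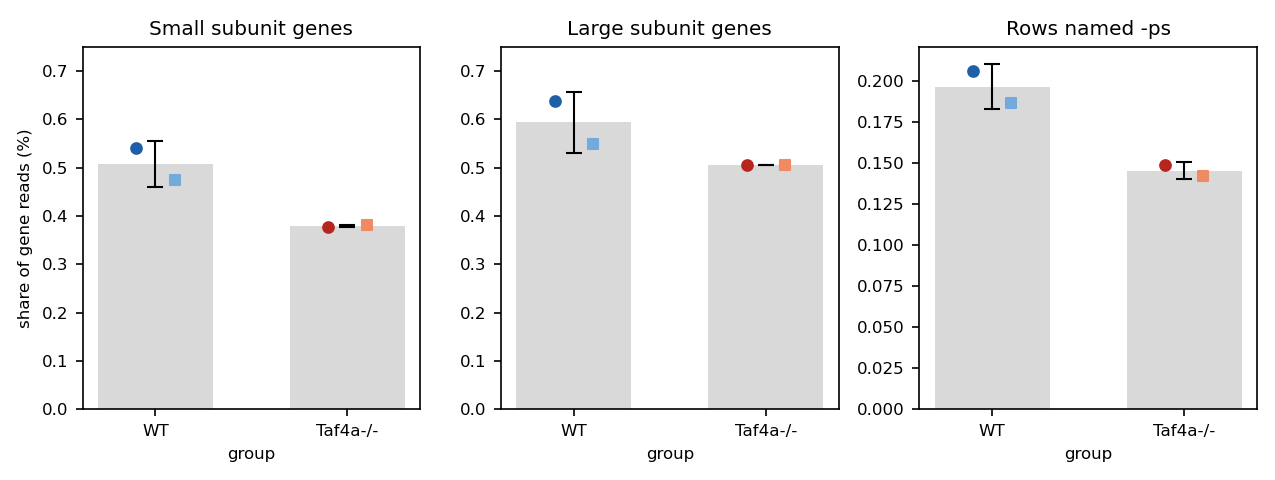
Share of gene reads (percent) on small subunit genes, large subunit genes and rows named -ps in each group; grey bars are means, error bars are the SD of 2 libraries and points are libraries, circles for replicate 1 and squares for replicate 2. In all 3 panels both libraries labelled Taf4a-/- lie below both WT libraries, with the 2 libraries labelled Taf4a-/- closer together than the WT pair.

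Rps21, Rps16 and Rps25 were among the small subunit genes that fell most. Rps21 was at 2756 and 2612 normalized counts in WT and at 1519 and 1430 in the libraries labelled Taf4a-/-, a log2 fold change of −0.86 ± 0.11 (SE; adjusted p = 0.00505, limma). For Rps21 the 2 lines of a genotype lay close together and far from the other pair. Rps16 went from 1776 and 1856 to 1207 and 1034, and Rps25 from 744 and 868 to 469 and 528. The call of Rps21 held in all 13 refits, that is under the other scalings, filters and variance models and without each library. That of Rps16 was lost without WT replicate 2, without Taf4a-/- replicate 2 and with no variance trend (adjusted p up to 0.106, limma), and that of Rps25 in these and without Taf4a-/- replicate 1 (up to 0.143). Rps25 is a protein that some viral and cellular internal ribosome entry sites need. Of the 50-base stretches of the coding sequence, 53.2% in Rps21, 0% in Rps16 and 1.82% in Rps25 occur nowhere else in the genome.

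Of small subunit proteins with known roles beyond structure or in disease, some were called lower and others did not pass the test. Rps3, which lines the mRNA entry channel and also takes part in DNA repair, was at 31349 and 29848 in WT and at 20355 and 20758 in the libraries labelled Taf4a-/- (log2 fold change −0.57, adjusted p = 0.0289, limma). Rps14, whose loss on one chromosome causes the anaemia of the 5q- syndrome in people, was at 9615 and 8490 against 5592 and 6137 (log2 fold change −0.63, adjusted p = 0.0184, limma). The X-linked Rps4x was at 3558 and 3568 against 2536 and 2741 (log2 fold change −0.43, adjusted p = 0.0342, limma). Each of these 3 had both libraries labelled Taf4a-/- below both WT libraries. Of the 50-base stretches of the coding sequence, 91.9% in Rps3, 48.6% in Rps14 and 9.69% in Rps4x occur nowhere else in the genome. All 3 calls were lost without either Taf4a-/- library and with no variance trend, and that of Rps4x also without WT replicate 2, with adjusted p up to 0.272 for Rps3, 0.164 for Rps14 and 0.295 for Rps4x over the alternatives. Rps19, the gene most often mutated in Diamond-Blackfan anaemia, had values of 1581 and 1528 against 1180 and 1248, with an adjusted p of 0.0656. Rpsa, also known as the laminin receptor, had values of 243 and 209 against 155 and 164, with an adjusted p of 0.123. Rps27a, made as a fusion to ubiquitin, had values of 244 and 215 against 336 and 240, so its groups met.

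Rps6 was the one small subunit gene called higher. It encodes the protein that the S6 kinases phosphorylate downstream of mTOR. It was at 51.7 and 52.0 normalized counts in WT and at 145 and 154 in the libraries labelled Taf4a-/-, a log2 fold change of 1.51 ± 0.26 (adjusted p = 0.0107, limma), and the groups lay far apart. Its call was lost without WT replicate 2 or without Taf4a-/- replicate 2, with adjusted p up to 0.0520 over the alternatives. Rps6 was also among the least counted members for its length, and every 50-base stretch of its coding sequence has a copy elsewhere in the genome. Rps28, Rps2 and Rps10 had log2 fold changes of 0.92, 0.70 and 0.43. None of these 3 passed the test, with adjusted p from 0.0519 to 0.210 (limma), although both libraries labelled Taf4a-/- lay above both WT libraries for each.

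Rpl37, Rpl22, Rpl13a and Rpl23 were among the large subunit genes that fell most. Rpl37 was at 722 and 713 against 418 and 445 (log2 fold change −0.73, adjusted p = 0.0155, limma). Rpl22, which binds RNA on the outside of the ribosome and is dispensable for most cells, was at 9543 and 9398 against 5716 and 6200 (log2 fold change −0.67, adjusted p = 0.0114, limma). Rpl13a, known for silencing a group of inflammatory mRNAs when released from the ribosome, was at 9971 and 10011 against 6573 and 6489 (log2 fold change −0.61, adjusted p = 0.0134, limma). Rpl23 was at 2295 and 2381 against 1681 and 1471. In all 4 of these genes the WT values lay close together, and both libraries labelled Taf4a-/- lay below them. Of the 50-base stretches of the coding sequence, 69.2% in Rpl22 and 59.5% in Rpl13a occur nowhere else in the genome. In Rpl37 and Rpl23 the shares are 18.8% and 13.4%. The 4 calls were lost without either Taf4a-/- library, those of Rpl37 and Rpl23 also without WT replicate 2, and all but that of Rpl37 with no variance trend. Adjusted p (limma) reached 0.0986 for Rpl37, 0.124 for Rpl22, 0.132 for Rpl13a and 0.180 for Rpl23 over the alternatives.

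The stalk and some other large subunit proteins of known function mostly did not pass the test. The stalk binds the elongation factors, and its base protein Rplp0 was at 16255 and 12529 in WT and at 12868 and 11961 in the libraries labelled Taf4a-/-, so the groups overlapped. Its partner Rplp1 had values of 5659 and 4285 against 3811 and 3961 (adjusted p = 0.151, limma). Rplp2 lay just outside the threshold, at 2822 and 2585 against 2092 and 2077 (log2 fold change −0.37, adjusted p = 0.0538, limma). Rpl3, which reaches towards the peptidyl transferase centre, lay just inside it, at 2106 and 1964 against 1495 and 1559 (log2 fold change −0.41, adjusted p = 0.0429, limma). That call was lost without any one of the 4 libraries, with adjusted p up to 0.291. For Rpl3, 4.30% of the 50-base stretches of the coding sequence occur nowhere else in the genome. Rpl38, needed for translation of Hox mRNAs in the mouse embryo, had values of 283 and 356 against 382 and 331 and did not pass the test.

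4 large subunit genes were called higher. Rpl27 was at 480 and 257 normalized counts in WT and at 848 and 740 in the libraries labelled Taf4a-/-, a log2 fold change of 1.17 ± 0.30 (adjusted p = 0.0332, limma). Rpl5 was at 173 and 190 against 377 and 373, a log2 fold change of 1.04 ± 0.18 (adjusted p = 0.0115, limma). Rpl5 forms with Rpl11 and 5S ribosomal RNA the particle that binds Mdm2 when ribosome assembly stalls. Rpl11 had values of 177 and 169 against 290 and 253, with a log2 fold change of 0.64 and an adjusted p of 0.0559 (limma). The X-linked Rpl36a was at 86.8 and 74.8 against 160 and 164 (log2 fold change 1.00, adjusted p = 0.0296, limma). Rpl10a, which is enriched on a subset of ribosomes in ESCs, was at 814 and 726 against 1403 and 1213 (log2 fold change 0.76, adjusted p = 0.0141, limma). The values did not overlap for any of these 5 genes. In each of them every 50-base stretch of the coding sequence has a copy elsewhere in the genome. Summed with the pseudogene rows named after it, Rpl10a had a log2 difference of −0.23, so its direction turned. The same sum gave 0.15 for Rpl36a, 0.95 for Rpl5 and 1.17 for Rpl27. Each of the 4 calls was lost without Taf4a-/- replicate 1. Those of Rpl27, Rpl36a and Rpl10a were also lost without WT replicate 2, those of Rpl5 and Rpl36a without Taf4a-/- replicate 2, and those of Rpl27 and Rpl10a with no variance trend, with adjusted p reaching 0.0565 for Rpl5, 0.0956 for Rpl27, 0.0968 for Rpl10a and 0.146 for Rpl36a over the alternatives. Exons of Rpl5 overlap those of other genes on this annotation. Strand was not marked by the library kit, so reads of overlapping genes cannot be told apart there. The same holds for other members, among them Rpl13a, Rps3 and Rps25, which were called lower, and Rps2, Rps10, Rps28 and Rplp2.

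A pair of the paralogues ending in l, Rpl10l and Rpl39l, gave the largest rises of all members tested. Rpl10l, an intronless copy of Rpl10 on chr12:67384368-67385388 (NCBIM37) used in male germ cells, was at 3.51 and 3.12 normalized counts in WT, which is 4 and 3 reads. It was at 52.9 and 75.2 in the libraries labelled Taf4a-/-, which is 54 and 68 reads. The log2 fold change was 3.89 ± 0.45 (adjusted p = 0.00361, limma), and reads per total were 19.8 times as many, with an exact 95% interval from 9.33 to 50.3 for counting error only. Rpl39l was at 3.51 and 8.31 in WT, 4 and 8 reads, and at 59.7 and 31.0 in the other group, 61 and 28 reads. The log2 fold change of Rpl39l was 2.77 ± 0.58 (adjusted p = 0.0195, limma), with 8.43 times as many reads per total (interval 4.59 to 16.9). Both genes passed the minimum mean of 10 only through the libraries labelled Taf4a-/-, so a tested gene of this kind had to differ. The call of Rpl39l was lost without WT replicate 1, WT replicate 2 or Taf4a-/- replicate 1, with adjusted p up to 0.0840.

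The genes that these paralogues are named after did not rise with them. Rpl10 had values of 400 and 526 in WT and 533 and 388 in the libraries labelled Taf4a-/-, a log2 fold change of −0.01. Its sign turned under other scalings and when single libraries were left out. Rpl39 had values of 1423 and 1406 against 786 and 1287, with a log2 fold change of −0.49 ± 0.23 and an adjusted p of 0.162 (limma). Here Taf4a-/- replicate 1 stood lowest and replicate 2 near WT. Both genes are X-linked, and Xist, the RNA that coats an inactive X chromosome, was at 6.14 and 7.27 in WT, at 217 in Taf4a-/- replicate 1 and at 6470 in Taf4a-/- replicate 2, while the Y-linked Eif2s3y was at 1688, 0, 309 and 0 in the same order of libraries. Rps4x, which was called lower, and Rpl36a, which was called higher, are X-linked too. Any part of the X chromosome's state in the values of these 4 X-linked members was not tested. Reads of the pairs are separable by sequence on the side of the paralogue: 100% of the 50-base stretches of the Rpl39l coding sequence and 87.6% of those of Rpl10l occur at no other place in the genome, while the share is 11.2% for Rpl39 and 0 for Rpl10. The proteins of Rpl10 and Rpl10l differ at 3 of 214 residues although their coding sequences are 84.8% identical. The germ cell markers on the list (Dazl, Ddx4, Sycp3, Mael and Tex101) summed to 91.2 and 54.0 normalized counts in WT and to 344 and 336 in the libraries labelled Taf4a-/-. Of the 4 that were tested, Dazl, Ddx4 and Sycp3 were called higher. Mael was called too, but it passed the minimum mean of 10 only through the libraries labelled Taf4a-/-, so it had to differ. Tex101 was listed at 0 in both WT libraries. Their part in the rise of Rpl10l and Rpl39l was not tested.

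Rpl3l and Rps27l did not take part in this rise. Rpl3l was at 2.63 and 6.23 in WT and 4.89 and 6.64 in the libraries labelled Taf4a-/-, which is 3, 6, 5 and 6 reads, and was the one member below the minimum for the test. It stayed this low in the WT cultures although their cardiomyocyte markers were high. Rps27l, a target of p53, was at 1646 and 2225 in WT and 1971 and 1875 in the libraries labelled Taf4a-/-, a log2 fold change of 0.01 ± 0.17, and the values of both groups were mixed. Per kilobase of transcript its WT level, 3879, was above that of Rps27, 82.1, of which no 50-base stretch of the coding sequence is found at a single place.

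**Figure D3:**
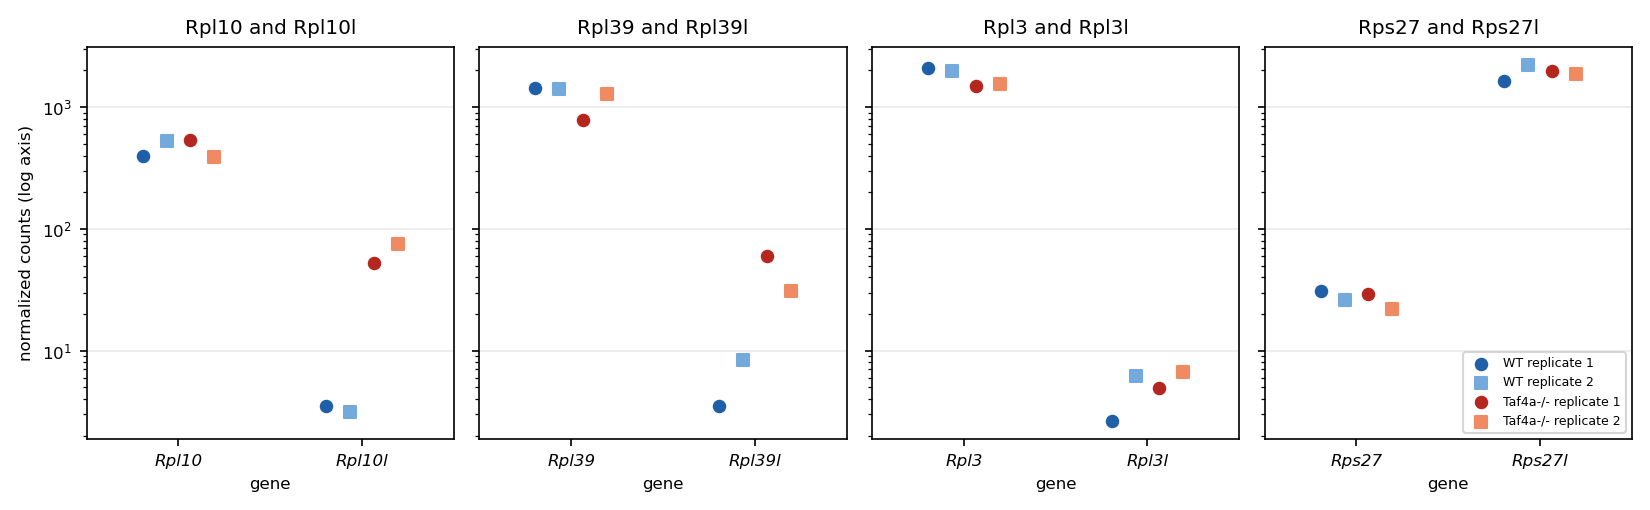
Normalized counts (log axis) of the 4 paralogues ending in l, each beside the gene it is named after, with 1 point per library. Rpl10l and Rpl39l stand at 3.12 to 8.31 in WT and at 31.0 to 75.2 in the libraries labelled Taf4a-/-, while Rpl10 and Rps27l show mixed groups and Rpl3 is lower in both libraries labelled Taf4a-/-.

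The members differed widely in level, and the direction of change went with it. Among the 76 small and large subunit genes the WT mean per kilobase of transcript ran from 19.3 normalized counts for Rpl23a to 30805 for Rpl8, with a median of 1096, although a ribosome holds these proteins in matched amounts. Of the 38 genes that averaged 1000 normalized counts or more, 19 were called lower and 1 higher, and their median log2 fold change was −0.42. Among all 5955 genes tested at that level, 14.4% were called lower and 14.9% higher, with a median of 0.04. Of the 38 subunit genes under 1000, 4 were called lower and 4 higher, with a median of 0.08. Among all 10971 genes tested under 1000, 18.9% were called lower and 9.27% higher, with a median of −0.06, so the share of subunit genes called higher there was near the background. Across the 76 genes Spearman's rho between mean level and log2 fold change was −0.58, and it was 0.05 across all 16926 genes. Genes of one library share its depth and composition, so these values are descriptions. With the replicate number as a block in the fit, 12 of the 38 genes at 1000 or more were called lower. That is 31.6%, beside 12.6% of all genes at that level. The 19 became 3 without Taf4a-/- replicate 1, 3 without Taf4a-/- replicate 2, 11 without WT replicate 2 and 2 with no variance trend, where 6.99%, 7.05%, 7.71% and 4.92% of all genes at that level were called lower. The shares of 7.89% without either Taf4a-/- library and 5.26% with no trend are near these backgrounds.

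Level in turn went with how much of a gene's sequence is repeated in the genome. For each gene every 50-base stretch of the coding sequence was looked up on the assembled NCBIM37 chromosomes, outside the gene's own span. The transcript numbered 001 was read for each gene where there is one, and otherwise that with the longest coding sequence. In 66 of the 76 genes fewer than 50% of the stretches were found at a single locus, and these had a median mean level of 735 normalized counts. In the other 10 the share was at least 53.2%, and the median mean level was 8180. Spearman's rho across the 76 genes was 0.82 between the single-locus share and the level, and −0.62 between that share and the log2 fold change. Of the 10 mostly single-locus genes 6 were called lower and 0 higher (limma), and their median log2 fold change was −0.53. At an unadjusted p under 0.05, 7 were lower and 0 higher, where 23.7% of all genes tested were lower and 18.8% higher. With voom 6 were called lower and 0 higher, beside 15.2% and 12.6% of all genes tested. The 6 became 1 without Taf4a-/- replicate 1, 1 without Taf4a-/- replicate 2 and 1 with no variance trend. Of the 66 mostly repeated genes 17 were called lower and 5 higher, with a median of −0.23. These shares were 25.8% and 7.58%, beside 17.3% and 11.3% of all genes tested (limma), so the higher calls lay under the background. The 17 became 3 under each of those settings and 6 without WT replicate 2. With no variance trend 10.3% of all genes tested were called lower, and neither set's share lay above that. Without either Taf4a-/- library neither share exceeded that of all genes, so the excess of lower calls was absent there. Without WT replicate 2 the share of the repeated genes was near that of all genes. All 10 single-locus genes averaged 1000 or more. The 28 repeated genes at that level had 13 called lower and 1 higher, with a median of −0.39. The split by repeated sequence thus goes with the split by level. With the longest coding sequence of every gene the groups held 11 and 65 genes and the numbers called were the same. The gene that changed group was Rpl24, whose longest annotated coding sequence has 3153 bases against 474 in the transcript used, and whose values overlapped between the groups. How the counting program treated reads that align to several places is not given in the sources used here, and the part of repeated sequence in the rises was not tested. Judged by the whole transcript in place of the coding sequence, 15 of the genes called lower were mostly single-locus and 8 mostly repeated, and with 36-base stretches of the coding sequence the numbers were 3 and 20.

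**Figure D4:**
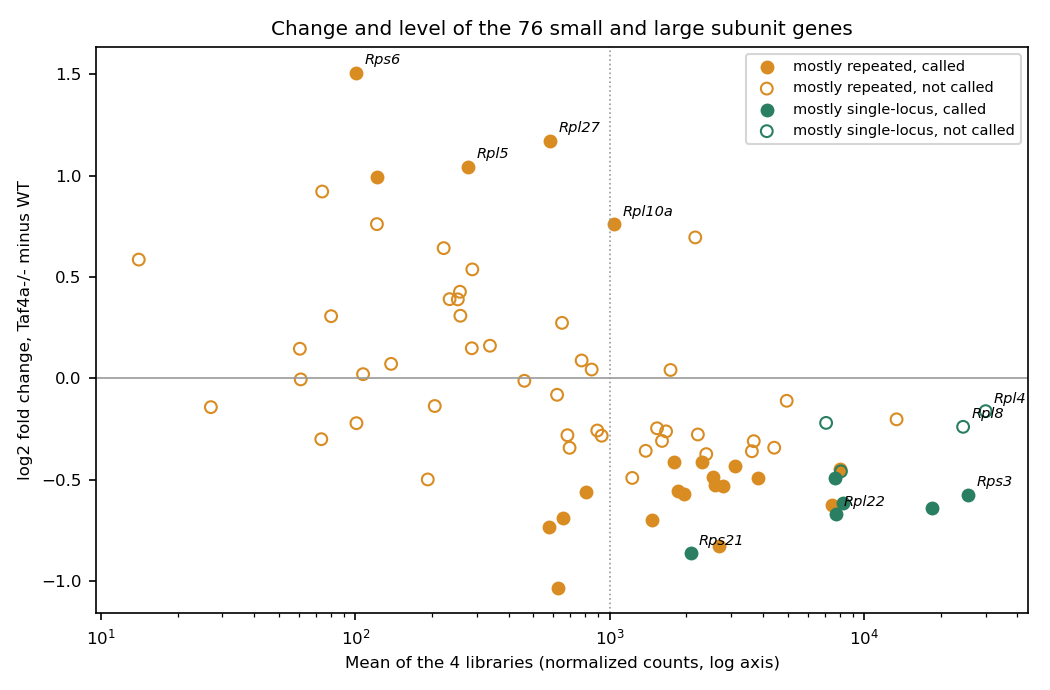
Log2 fold change (libraries labelled Taf4a-/- minus WT) against the mean of the 4 libraries (normalized counts, log axis) for the 76 small and large subunit genes; colour gives the share of the coding sequence found at a single locus, and filled points were called by limma. The 10 mostly single-locus genes lie at or below −0.16, and the 5 filled points above 0 are all mostly repeated and have means under or close to the dotted line at 1000.

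The rows named -ps, annotated pseudogenes of these genes, held reads beside those of the members, and none of them was called higher. The table held 116 such rows, 38 of them averaging 10 or more, and of these 13 were called lower and 0 higher (limma). At an unadjusted p under 0.05, 17 were lower and 0 higher, beside 23.7% and 18.8% of all genes tested. The 6 called lower by voom are a share near its background of 15.2%, and voom called 0 higher. They took 0.196% ± 0.0137 (SD, n = 2) of gene reads in WT and 0.145% ± 0.00494 (SD, n = 2) in the libraries labelled Taf4a-/-, without overlap. Of the 50 members with at least 1 such row, 12 had fewer counts than their pseudogene rows together. Rpl10a was one of them. Rpl10a-ps1 alone was at 5359 and 4943 in WT and at 3631 and 3808 in the libraries labelled Taf4a-/-, and was called lower (adjusted p = 0.0293, limma), while Rpl10a itself was called higher. Summed with its -ps rows, Rpl10a was at 6175 and 5669 in WT and 5034 and 5022 in the other group, so the direction turned. The sum also turned the sign for Rpl9, Rpl19, Rpl38, Rps10 and Rpl18. For Rpl36a the log2 difference of the sum was 0.15 beside 1.00 for the gene alone. Rps6, Rpl5 and Rpl27 kept sums well above WT, with log2 differences of 1.34, 0.95 and 1.17. Whether reads in a -ps row came from the pseudogene or from the parent mRNA cannot be told apart from these counts.

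Names outside the rule that also belong to ribosomal proteins or their paralogues moved in both directions. Rpl22l1, the paralogue that can replace Rpl22, was at 1155 and 1355 in WT and at 696 and 656 in the libraries labelled Taf4a-/-, a log2 fold change of −0.89 ± 0.14 (adjusted p = 0.00867, limma), so both genes of the pair fell. Rpl7l1, a paralogue of Rpl7, was at 2737 and 2463 against 3678 and 4175 (log2 fold change 0.59, adjusted p = 0.0204, limma), while Rpl7 itself fell from 4446 and 4460 to 3192 and 3144. Gnb2l1, also known as Rack1, a scaffold on the small subunit, had values of 43766 and 38152 against 33360.5 and 27960 (adjusted p = 0.121, limma). Fau, whose product is fused to a ubiquitin-like protein, had a log2 fold change of −0.08. Rps4y2, an autosomal paralogue of Rps4x on chr6:148303178-148304120 (NCBIM37) that was picked after its values were seen, was at 1307 and 1464 against 3059 and 2861, a log2 fold change of 1.10 ± 0.12, while Rps4x fell. For Rps4y2, 82.0% of the 50-base stretches of the coding sequence are found at a single locus. The share is 18.1% for Rpl22l1 and 77.7% for Rpl7l1.

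The 43 ribosome biogenesis genes act on processing of ribosomal RNA or assembly of the subunits. Of these, 22 were called higher and 0 lower (limma), and the median log2 fold change of the 43 was 0.51. At an unadjusted p under 0.05, 28 were higher and 0 lower, beside 18.8% and 23.7% of all genes tested, and voom called 22 higher and 0 lower, beside 12.6% and 15.2%. Mdn1, an ATPase that strips factors from large subunit precursors, was at 3234 and 1836 normalized counts in WT and at 6778 and 6217 in the libraries labelled Taf4a-/- (log2 fold change 1.41, adjusted p = 0.0133, limma). Heatr1, needed for ribosomal RNA transcription, was at 2827 and 1829 against 4940 and 4932. Nat10, which acetylates ribosomal RNA, was at 1395 and 1041 against 2676 and 2381. For 38 of the 43 genes both libraries labelled Taf4a-/- lay above both WT libraries, and WT replicate 2 was the lower of the WT pair for 39 of the 43. The 22 became 7 without WT replicate 2, 6 without Taf4a-/- replicate 1, 11 without Taf4a-/- replicate 2 and 2 with no variance trend, where 4.40%, 3.69%, 3.69% and 5.06% of all genes were called higher.

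RNA polymerase I, which transcribes the ribosomal RNA precursor, had 4 of 13 genes called higher and 1 lower (limma), beside 11.3% and 17.3% of all genes tested. Polr1a, its largest subunit, was at 2636 and 1758 against 4316 and 3953, Polr1b at 1547 and 1000 against 2461 and 2132, and Taf1c, a subunit of its selectivity factor, at 345 and 302 against 569 and 509. Taf1d of the same factor was called lower, at 885 and 1026 against 660 and 521. The single lower call is a share under the background.

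Other mRNAs with a TOP element mostly did not pass the test. Of 17 such genes 5 were called lower, 0 were called higher and 12 were not called (limma), with a median of −0.20. At an unadjusted p under 0.05, 7 were lower and 0 higher, and voom called 4 lower and 0 higher, against backgrounds over all genes tested of 23.7% lower for the former and 15.2% lower for voom. Eif3f, a subunit of the initiation factor that holds the small subunit, was at 9779 and 9367 in WT and at 5594 and 5713 in the libraries labelled Taf4a-/- (log2 fold change −0.76, adjusted p = 0.00721, limma). Eif3h was at 5294 and 5453 against 3450 and 3708, and Gas5, a noncoding host of small nucleolar RNAs, at 3087 and 2909 against 1993 and 2046. The elongation factor Eef1b2 and Eif3e were the remaining genes called lower. The 60 tested genes named Eif with a number, of which some are also on the TOP list, had 8 called higher and 4 lower with a median of 0.15. The higher calls, 13.3%, are near the 11.3% of all genes tested, and the lower calls, 6.67%, are under the 17.3%. Eif4a1, the helicase that unwinds the mRNA leader, was at 2849 and 2466 against 4301 and 3771. The mitochondrial ribosome, with 76 genes, had 4 called higher and 3 lower with a median of 0.10, so its counts lay under the background of all genes.

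**Figure D5:**
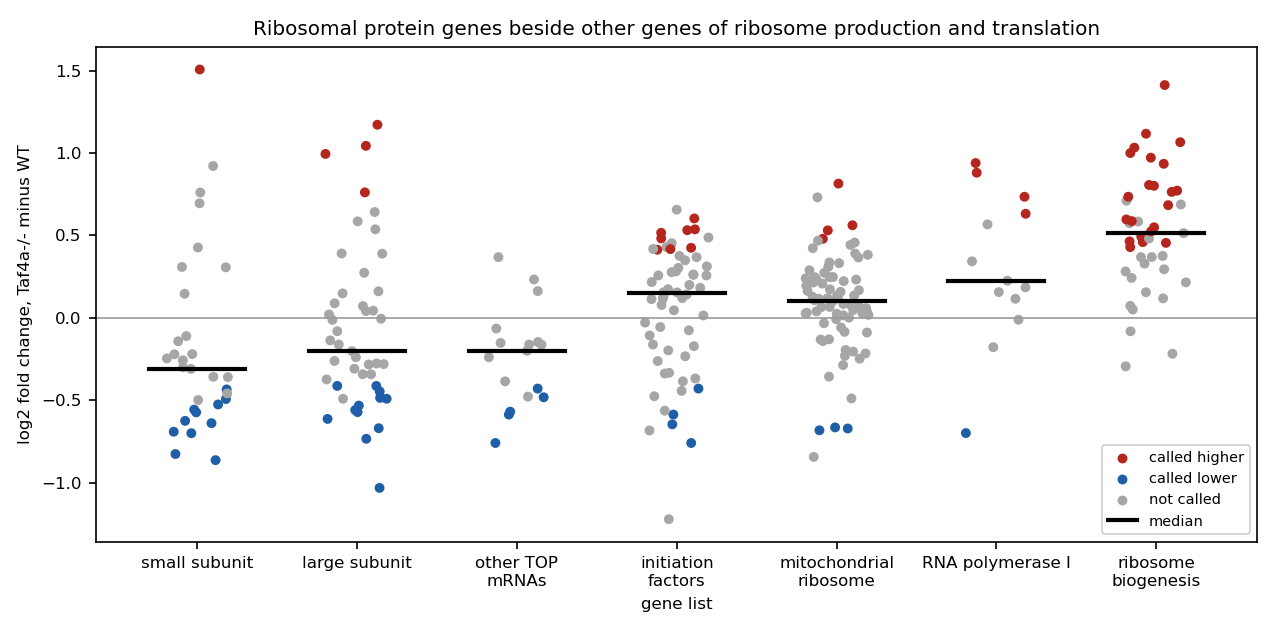
Log2 fold change (libraries labelled Taf4a-/- minus WT) of each tested gene in 7 gene lists; 1 point per gene, coloured by limma's call, with the median as a black line. The medians of the small subunit, large subunit and other TOP mRNAs lie at −0.31, −0.20 and −0.20, and that of ribosome biogenesis at 0.51.

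A list of 22 genes held those named Rps6k, regulators of ribosomal protein mRNAs and genes that answer to free ribosomal proteins. Of these, 4, or 18.2%, were called higher and 1 lower (limma), beside 11.3% and 17.3% of all genes tested. Mtor, the kinase that licenses TOP mRNA translation, was at 2521 and 2223 against 3998 and 4045 (log2 fold change 0.76, adjusted p = 0.00815, limma). Trp53, which is stabilised when Rpl5 and Rpl11 hold Mdm2, was at 3095 and 2070 against 5236 and 4679 (log2 fold change 0.97, adjusted p = 0.0193, limma). Of the p53 targets, Mdm2 and Cdkn1a did not pass the test, at log2 fold changes of −0.06 and −0.18. Rps6kl1 had a log2 fold change of 2.09 ± 0.36 (adjusted p = 0.0106, limma), and the kinase Rps6ka4 was called lower, at 894 and 1116 against 388 and 361. The S6 kinases Rps6kb1 and Rps6kb2 had log2 fold changes of 0.36 and 0.21 and did not pass the test.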

How the data were processed

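RNA-seq of 4 libraries was analysed: 2 WT and 2 labelled Taf4a-/-, grouped by their labels. The series' design text gives the lines as independent, and the sample labels number replicates only; the deposited values are the authors' normalized counts (another unit than raw counts), made from polyA RNA (TruSeq v2, which does not mark strand) mapped to mm9/NCBI37. The submitters' processing notes name CASAVA 1.8, TopHat 1.3.3, HTSeq 0.5.3p1 and DESeq. Division by the value of 1 read (0.877 to 1.11) gave whole reads for 100% of values (tolerance 0.01 reads). On these values, as log2(value + 1), a linear model was fitted across genes by limma 3.58.1 in R 4.3.3 (lmFit, eBayes with a variance trend) for 16926 genes averaging 10 or more over the libraries, and Benjamini-Hochberg adjusted p under 0.05 was called; the prior had 4.17 degrees of freedom. Gene positions and coding sequences came from GENCODE M1 on NCBIM37, with the transcript numbered 001 of each gene or, without one, the longest coding sequence. RefSeq promoter windows matched 60 members. The script was tested on simulated data.

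The members and lists were chosen with earlier results of these data known, and the splits by level, repeated sequence and -ps rows, with the transcript read for each gene, were added after seeing the data. Named members are the paralogues with their parents, the 5 largest rises and falls of each subunit and genes of known role; of other lists, the called genes with the largest changes are named (up to 3 in each direction), and Eef1b2, Eif3e, Rpl7, Rpl24, Rpl9, Rpl19, Rpl18, Fau, Gnb2l1, Rps6kb1, Rps6kb2, Mdm2 and Cdkn1a were named beside them after their values were seen. Some genes that the rule would name are not reported here, though all are in the counts. Likeness to the members' mean over 4 libraries was not computed, since so few points allow no correlation.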

Additional observations from a re-analysis of the deposited data

How the results depend on the processing

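The 7 members called higher became 11 with quantile normalization, 1 at an adjusted p under 0.01 and 11 at 0.1, and 2 to 8 when each library was left out in turn. The 23 called lower became 3 at the 0.01 threshold and 4 with no variance trend, and 4 to 22 when each library was left out. At 4 of 79 (no variance trend, or without either Taf4a-/- library) the members lay below the 10.3% to 11.7% of all genes called lower there. The other settings (other pseudocounts, no filter, a mean of at least 50, equal library totals, voom, the added names, no overlapping exons) stayed within 1.5 times. The median log2 fold change of −0.25 became −0.19 with equal library totals, −0.16 with quantile normalization, −0.19 with voom and −0.30 to −0.18 without single libraries. Quantile normalization moved the median of all genes to 0.11, relative to which the members' median was −0.27, beside −0.23 with the authors' size factors. The share of reads kept its direction throughout. Its difference of −0.216 percentage points became −0.139 without WT replicate 1 and −0.292 without WT replicate 2. The 22 ribosome biogenesis genes called higher became 2 with no variance trend and 6 to 30 without single libraries. The 19 members with a mean of at least 1000 called lower became 2 with no variance trend, 12 with the replicate block and 3 to 18 without single libraries.

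Rpl10 turned to 0.048, 0.15 and 0.061 with equal totals, quantile normalization and voom, and ranged from −0.24 to 0.22 without single libraries. Rpl38 ranged from −0.0043 to 0.33, Rps27 from −0.34 to 0.055 and Rps27l from −0.21 to 0.22 without single libraries, and Rps27 turned to 0.17 with quantile normalization. Where a result moved, the cause was not tested. Of 478 values of 37 named members, 395 kept direction and side of the threshold, 63 were weaker, 10 were reversed and 10 were stronger. Over all 63 named genes, members included, 656 of 816 values kept both, 140 were weaker, 10 were reversed and 10 were stronger. Values of named genes outside the members thus weakened too under some settings. The adjusted p values printed for those genes are from the main fit only. Replicate numbers share no known origin (correlation of deviations 0.012), and a fit with the replicate block called 8 members higher and 16 lower. edgeR and DESeq2 were not run. With 1 library left out, the lone library is assumed to vary like the others. Genes under about 10 normalized counts, such as Rpl3l, are limited by depth.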
